A study of Mus musculus with 8 samples.

Results

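The snoRNA host genes examined were Gas5, Snhg1, Snhg3, Snhg5, Snhg6, Snhg8 and Snhg12. They were found by their symbol, taken as the isoform name without its final number, and are 7 of the 49492 genes of the table, of which 27599 had a value above 0. Their 69 isoforms are among 122968, and 62 of them averaged 10 normalized counts or more. RNA was sequenced from 4 libraries of siL-DHX15-LEC and 4 libraries of wild-type LEC. LEC are mouse hepatic endothelial cells, strain C57BL/6, immortalized with the SV40 virus. In siL-DHX15-LEC a lentiviral shRNA vector with a Tet-On system that doxycycline induces silences Dhx15, an RNA helicase that takes the spliceosome apart after splicing. Wild-type LEC are labelled as untreated, with no word on whether they carried the vector, and no group is labelled as vector with doxycycline and without silencing. Silencing therefore cannot be told apart from vector or drug. The study describes the libraries of a condition as biologically independent, all from this 1 cell line, and the labels do not say how the cultures were kept apart. Replicate numbers follow the order of deposit and pair no libraries.

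Small nucleolar RNAs (snoRNAs) guide the chemical modification and cleavage of ribosomal RNA. In mammals most of them lie in introns of a host gene, and each is trimmed from the intron once the host transcript has been spliced. The noncoding hosts join short exons into a spliced RNA that is known to be cleared by nonsense-mediated decay, a pathway that removes RNAs in which translation stops early, so their level depends on transcription, splicing and decay. Hosts are also known to start with an oligopyrimidine tract (TOP), like the mRNAs of ribosomal proteins. An isoform that keeps an intron with a snoRNA still carries that snoRNA in its own sequence.

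The 7 hosts lie on GRCm38, with coordinates from GENCODE M21. Gas5 is at chr1:161034422-161038539 on the + strand, Snhg6 at chr1:9941959-9944118 on the - strand and Snhg8 at chr3:123507552-123508404 on the - strand. Snhg12 and Snhg3 are neighbours on chromosome 4, at chr4:132308623-132311024 on the + strand and chr4:132348014-132353686 on the - strand. Snhg5 is at chr9:88521050-88522929 on the - strand and Snhg1 at chr19:8723475-8726443 on the + strand. The annotation places 29 snoRNA records inside them on the same strand. Gas5 has 10, Snhg1 8, Snhg12 5, Snhg3 and Snhg5 2 each, and Snhg6 and Snhg8 1 each. Snord80 in Gas5 and Snora16a in Snhg12 each have 2 records that overlap at the same place. They are counted separately here and below. A search of each record on its own strand for TGATGA in the first 25 bases with CTGA in the last 25, the boxes of snoRNAs that guide methylation, found both in 18 of the 29, against 20.3% of the 1558 snoRNA and scaRNA transcripts annotated. ACA standing 3 bases before the end, the box of snoRNAs that guide pseudouridylation, was found in 7, against 19.3% of them. One record, Mir5117 in Gas5, had both patterns. All but 4 of the isoforms kept their identifier and version in the annotation, and the 4, all of Snhg12, were not placed on it.

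The introns below show what separates the main isoform of a host, the one with the highest mean, from an isoform that keeps an intron. For each host in which an isoform held a snoRNA, 1 intron of the main isoform is printed that lies whole inside an exon of the other. The kept introns belong to Gas5-006, Snhg1-002, Snhg5-007, Snhg8-003 and Snhg12-004. The sequences were read from GENCODE M21 transcripts that keep the intron. Capitals mark the annotated snoRNA, and each intron begins with gt and ends with ag, the usual bases at splice sites.
Gas5, intron with Gm22357, chr1:161036015-161036207, + strand: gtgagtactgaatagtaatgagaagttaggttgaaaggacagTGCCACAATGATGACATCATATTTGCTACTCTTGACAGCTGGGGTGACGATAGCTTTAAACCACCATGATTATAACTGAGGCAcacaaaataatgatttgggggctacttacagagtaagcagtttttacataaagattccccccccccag
Snhg1, intron with Gm22744, chr19:8725047-8725221, + strand: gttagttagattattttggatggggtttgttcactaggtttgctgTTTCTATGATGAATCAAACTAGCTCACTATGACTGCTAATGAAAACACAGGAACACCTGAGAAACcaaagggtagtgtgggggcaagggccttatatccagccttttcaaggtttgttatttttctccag
Snhg5, intron with Snord50a, chr9:88521449-88521649, - strand: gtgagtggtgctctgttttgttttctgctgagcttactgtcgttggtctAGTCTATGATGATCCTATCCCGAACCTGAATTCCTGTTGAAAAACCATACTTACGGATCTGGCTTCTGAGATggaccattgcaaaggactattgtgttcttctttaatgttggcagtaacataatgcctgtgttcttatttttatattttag
Snhg8, intron with Snora24, chr3:123507863-123508111, - strand: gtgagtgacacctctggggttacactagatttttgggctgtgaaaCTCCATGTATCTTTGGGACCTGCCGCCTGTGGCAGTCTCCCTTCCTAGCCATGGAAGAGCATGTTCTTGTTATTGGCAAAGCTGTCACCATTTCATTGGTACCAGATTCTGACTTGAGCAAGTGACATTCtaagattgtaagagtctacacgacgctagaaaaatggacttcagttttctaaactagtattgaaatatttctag
Snhg12, intron with Snora44, chr4:132309904-132310150, + strand: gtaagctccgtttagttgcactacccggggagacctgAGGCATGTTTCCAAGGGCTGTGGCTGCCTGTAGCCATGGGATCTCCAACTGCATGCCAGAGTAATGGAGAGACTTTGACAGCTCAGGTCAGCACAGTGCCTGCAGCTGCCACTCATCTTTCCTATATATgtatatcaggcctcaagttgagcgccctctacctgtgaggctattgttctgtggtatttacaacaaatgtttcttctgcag
The snoRNAs of Gas5, Snhg1 and Snhg5 printed here had TGATGA and CTGA, Snora24 had ACA near its end, and Snora44 matched neither pattern. The libraries were made from poly-A RNA, and few snoRNA records had a value. Of the 29 records, 21 were at 0 in all 8 libraries and 3 had a mean of at least 10. Snora73b had 116, 105, 122 and 116 normalized counts in siL-DHX15-LEC, against 125, 90.5, 87.7 and 90.9 in wild-type LEC (adjusted p = 0.190). Snora73a averaged 39.9 ± 2.04 and 46.3 ± 6.73 (adjusted p = 0.343) and Snord22 13.2 ± 4.29 and 9.87 ± 5.06 in siL-DHX15-LEC and wild-type LEC (SD, n = 4 each, adjusted p = 0.404, limma). Snora73a and Snora73b are near copies of each other, and reads could have been split between them.

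Values are isoform counts divided by 1 size factor per library, summed over isoforms for a gene. Depth, recovered from the counts as read pairs assigned to isoforms, was 77335734 to 149258495 in siL-DHX15-LEC, lowest in replicate 1. In wild-type LEC it was 118830467 to 152045693. Counting error was thus small for the hosts. The silenced gene followed the labels. Dhx15 had 8936, 7956, 8930 and 10051 normalized counts in siL-DHX15-LEC, against 26824, 27952, 26430 and 28006 in wild-type LEC, 0.327-fold (limma, adjusted p = 3.29e-08). Libraries of the 2 conditions ran on different flow cell lanes, 5 and 2 for siL-DHX15-LEC and 4 and 1 for wild-type LEC, which leaves the lane confounded with the condition, and their effects cannot be told apart. Mean insert sizes were 142 ± 1.22 and 145 ± 1.50 bases in siL-DHX15-LEC and wild-type LEC (SD, n = 4 each). Of 12 endothelial markers, 6 averaged 10 or more. Pecam1 rose at a low level, with 37.0 ± 2.54 in siL-DHX15-LEC and 25.2 ± 5.77 in wild-type LEC (SD, n = 4 each, 1.48-fold, adjusted p = 0.0409). Eng fell, with 322 ± 11.1 in siL-DHX15-LEC and 392 ± 33.6 in wild-type LEC (0.824-fold, adjusted p = 0.0160). Kdr, Esam, Nos3 and Vwf did not pass. Kdr averaged 776 and 746 and Vwf 14.9 and 12.7 in siL-DHX15-LEC and wild-type LEC. Cdh5, Erg, Cldn5, Tie1 and Emcn were at 0 or below 5 in every library. The 12 markers summed to 1320 to 1380 in siL-DHX15-LEC, against 1290 to 1430 in wild-type LEC. Of 8 sinusoidal and lymphatic markers, summing to 7110 to 7410 in siL-DHX15-LEC, against 7230 to 8190 in wild-type LEC, Pdpn made up most, Stab1 was present, and Mrc1 fell (0.375-fold, adjusted p = 0.000175). Lyve1 and Clec4g stayed at or below 2.6 in both. All 11 hepatocyte markers were lower in siL-DHX15-LEC, with a summed level of 5100 to 5910 against 7520 to 8140 in wild-type LEC, most of it Trf. Alb was at 0, 0, 0 and 1.89 in siL-DHX15-LEC, against 522 to 658 in wild-type LEC and Ttr, Fga, Fgb, Serpina1a, Mup7 and Mup20 were at 0 throughout siL-DHX15-LEC. Of the 5 mesothelial markers 3 fell, Upk3b (0.664-fold), Upk1b (0.665-fold) and Wt1 (0.784-fold), and 1 rose, Krt19 (1.50-fold, adjusted p = 3.47e-05). Msln did not pass, with 22900 ± 1230 in siL-DHX15-LEC and 23400 ± 702 in wild-type LEC (SD, n = 4 each). Krt19 made up the largest part of the mesothelial sum of 79800 to 86900 in siL-DHX15-LEC, against 68400 to 75800 in wild-type LEC. The 7 mesenchymal markers summed to 39100 to 40400 in siL-DHX15-LEC, against 45600 to 46700 in wild-type LEC, with 2 lower, and the 5 leukocyte markers to 336 to 362 in siL-DHX15-LEC, against 317 to 377 in wild-type LEC, with Ptprc near 0. The part of these cell types in the results on the hosts was not tested.

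Summed over isoforms, 2 of the 7 hosts rose in siL-DHX15-LEC, 1 fell and 4 did not pass the test (limma on log2(normalized count + 1), Benjamini-Hochberg adjustment over all genes, adjusted p of 0.05). Over the 16489 genes tested 33.2% passed, 18.4% higher and 14.8% lower, so the share of hosts that passed was near that of all genes. The median log2 fold change of the hosts was 0.11, against -0.01 for all genes. The conditions did not overlap in Snhg5, Snhg8 and Snhg12, beside 30.8% of all genes tested.

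Snhg12, which hosts Snora16a, Snora44, Snora61 and Snord99, rose the most. It had 2659, 2279, 2133 and 2016 normalized counts in siL-DHX15-LEC, against 1638, 1757, 1661 and 1641 in wild-type LEC. The groups did not overlap, and the log2 fold change was 0.43 ± 0.07 (SE, adjusted p = 0.00126). Snhg8, the host of Snora24, had 2900, 3015, 3005 and 2961 in siL-DHX15-LEC, against 2466, 2489, 2432 and 2457 in wild-type LEC. Its libraries were the closest to each other of any host within each condition, and its log2 fold change was 0.27 ± 0.04 (adjusted p = 0.00032). Both calls held when any 1 library was left out. 

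Snhg3, the host of Snora73a and Snora73b, which take part in the cleavage of ribosomal RNA precursors, was the only host that fell. It had 1117, 1124, 1098 and 1286 normalized counts in siL-DHX15-LEC, against 1346, 1240, 1326 and 1497 in wild-type LEC. Replicate 4 of siL-DHX15-LEC lay above replicate 2 of wild-type LEC, so the groups overlapped, and the log2 fold change was -0.23 ± 0.07 (adjusted p = 0.0269). The call was lost, with adjusted p of 0.0558 to 0.0893, without siL-DHX15-LEC replicate 1, 2 or 3 or wild-type LEC replicate 3 or 4. Snhg3 overlaps Rcc1 on the same strand, so reads may be split between them. Rcc1, a chromatin-bound exchange factor for the GTPase Ran, averaged 19700 ± 918 in siL-DHX15-LEC and 16700 ± 573 in wild-type LEC (SD, n = 4 each, adjusted p = 0.00137), the opposite direction.

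The other hosts did not pass. Snhg5, which hosts Snord50a and Snord50b, had 1856, 1654, 1661 and 1931 in siL-DHX15-LEC, against 1208, 1642, 1629 and 1571 in wild-type LEC. The groups did not overlap by a narrow gap, the log2 fold change was 0.24 (95% interval 0.03 to 0.44), and the adjusted p was 0.0717. Without wild-type LEC replicate 1, its lowest library, the log2 fold change of Snhg5 was 0.13 (adjusted p = 0.125). Snhg6, the host of Snord87, had 3612, 3545, 3385 and 3827 in siL-DHX15-LEC, against 3105, 3535, 3286 and 3360 in wild-type LEC. The ranges overlapped (log2 fold change 0.11, interval 0.00 to 0.23, adjusted p = 0.111). Gas5, named for its rise in growth-arrested cells, had 11157, 10425, 10831 and 13238 in siL-DHX15-LEC, against 9331, 12138, 11340 and 11120 in wild-type LEC. Snhg1, the host of Snord22, had 5788, 4992, 5161 and 6499 in siL-DHX15-LEC, against 4552, 5777, 5814 and 5611 in wild-type LEC. For both the values were mixed between conditions, with log2 fold changes of 0.06 (interval -0.13 to 0.24, adjusted p = 0.641) and 0.04 (interval -0.16 to 0.24, adjusted p = 0.740). The sign of both turned when libraries were scaled to equal totals.

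**Figure D1:**
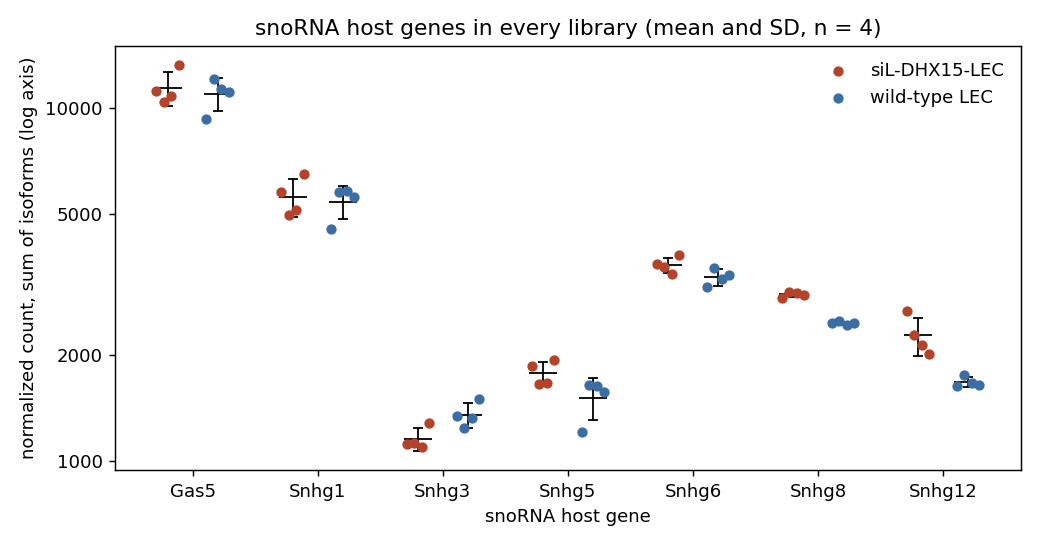
Normalized count of each snoRNA host gene, summed over isoforms, in 4 siL-DHX15-LEC and 4 wild-type LEC libraries on a log axis, with the mean and SD as bars. The groups of Snhg8 and Snhg12 stand apart, with siL-DHX15-LEC higher, Snhg3 is lower in siL-DHX15-LEC with an overlap, and Gas5 and Snhg1 overlap widely.

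Levels between hosts can be compared only per length. Per kilobase of its own length, the main isoform of Gas5 stood highest, with 13396 ± 1439 normalized counts per kb in siL-DHX15-LEC and 10740 ± 1304 in wild-type LEC (SD, n = 4 each). Snhg1-001, Snhg8-001 and Snhg6-001 came next, with means of 6500, 6223 and 5829 per kb in siL-DHX15-LEC and 5244, 4970 and 5118 in wild-type LEC. These 3 could not be put in order, as the range of Snhg1-001, 5663 to 7419 in siL-DHX15-LEC and 4322 to 5743 in wild-type LEC, overlapped both others. Snhg12-002 followed with 2818 ± 470 in siL-DHX15-LEC and 1674 ± 158 in wild-type LEC, and Snhg3-001 with 1923 ± 174 in siL-DHX15-LEC and 2248 ± 215 in wild-type LEC. The order of this pair by mean differed between the conditions. Snhg5-002 was lowest, with 1110 ± 134 in siL-DHX15-LEC and 721 ± 113 in wild-type LEC.

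The isoforms of the hosts moved in different directions. In 6 of the 7 hosts, all but Snhg3, isoform usage changed, that is, an isoform differed from the others of its gene (diffSplice of limma, Simes p per gene, Benjamini-Hochberg adjustment over 6678 genes, entering isoforms that averaged 10 or more and made up 5% of their gene). Over all genes tested, 16.5% passed. Adjusted p was 3e-05 for Snhg12, 0.000763 for Snhg8, 0.00196 for Snhg6, 0.00824 for Snhg1, 0.0138 for Gas5 and 0.0330 for Snhg5, and 0.848 for Snhg3. The count depended on which isoforms were entered. With isoforms of at least 50 and 10% of the gene, 4 hosts were left with 2 or more isoforms, and Snhg1 and Snhg5 passed. With all isoforms of a mean of at least 1, Gas5 alone passed (adjusted p = 0.00479), and with a variance per isoform 6 passed. Over all genes, 937, 856 and 1023 passed in these settings, in the same order, beside 1101 in the main test. Gas5 lost its call without siL-DHX15-LEC replicate 1 or wild-type LEC replicate 3 or 4, and Snhg5 lost it without any 1 library other than siL-DHX15-LEC replicate 4 (adjusted p = 0.0521 to 0.119).

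The main isoform of 6 hosts took a larger share of its gene in siL-DHX15-LEC, and the 4 libraries of each condition did not overlap. Over 9457 genes with at least 2 isoforms of a mean of at least 10, 7.81% had a main isoform with a share higher without overlap, and 892, or 9.43%, a lower one. An exact two-sided permutation test of each share gave p = 0.0286 for each of the 6, the smallest p that 4 against 4 libraries allow, from 7 shares tested. Snhg12-002 made up 78.9%, 75.9%, 73.1% and 71.6% of Snhg12 in siL-DHX15-LEC, against 56.2%, 64.9%, 62.3% and 58.8% in wild-type LEC. Every siL-DHX15-LEC library lay above the highest wild-type library by several points. Snhg1-001 made up 73.3%, 68.6%, 69.3% and 69.1% of Snhg1 in siL-DHX15-LEC, against 57.4%, 60.1%, 57.0% and 58.6% in wild-type LEC. Gas5-007 made up 66.4%, 64.6%, 65.6% and 64.9% of Gas5 in siL-DHX15-LEC, against 55.3%, 57.0%, 51.2% and 54.4% in wild-type LEC. In these 2 hosts the gene sum had not passed the test, and the shares were apart by 11.8 and 10.9 percentage points. Snhg5-002 made up 52.4%, 50.6%, 44.2% and 47.9% of Snhg5 in siL-DHX15-LEC, against 36.9%, 39.8%, 36.6% and 35.5% in wild-type LEC. The shares of Snhg6-001 and Snhg8-001 were high in both conditions and differed less. They averaged 76.8% ± 0.649 and 93.9% ± 0.626 in siL-DHX15-LEC, against 72.9% ± 0.955 and 90.5% ± 0.945 in wild-type LEC (SD, n = 4 each). Snhg3-001 averaged 72.6% ± 1.71 in siL-DHX15-LEC and 72.6% ± 1.35 in wild-type LEC (exact permutation p = 0.9143).

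Isoforms that keep an intron took a smaller share. This grouping, by the biotype that the file gives, was chosen after values had been seen, so it is described and not tested. The biotype was given to isoforms of 4 hosts, and in all 4 its summed share was lower in siL-DHX15-LEC without overlap. Retained intron and main isoforms are parts of the same gene sum. This lower share and the larger one above are therefore not separate results. Among 5095 genes with isoforms of both kinds, 9.44% had such a share lower without overlap and 3.69% higher. These are shares of counts and not of molecules, and a longer isoform gathers more counts. Gas5-003, for instance, is 2556 bases long and Gas5-007 is 557. In Gas5, 20 retained intron isoforms together made up 24.8%, 26.2%, 26.5% and 27.1% in siL-DHX15-LEC, against 37.4%, 35.4%, 41.3% and 38.0% in wild-type LEC. In Snhg1, 14 such isoforms made up 22.7%, 27.2%, 26.7% and 27.2% in siL-DHX15-LEC, against 37.8%, 35.7%, 38.3% and 36.3% in wild-type LEC. In both genes every wild-type library lay above every siL-DHX15-LEC library by 8 points or more. In Snhg5, 3 made up 14.7%, 19.6%, 20.6% and 23.7% in siL-DHX15-LEC, against 28.7%, 28.7%, 35.3% and 27.4% in wild-type LEC. In Snhg8 the single one, Snhg8-003, made up 4.57%, 5.10%, 5.02% and 5.14% in siL-DHX15-LEC, against 6.47%, 8.33%, 7.51% and 8.28% in wild-type LEC.

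The counts behind the shares differed on both sides by mean. The retained intron isoforms of Gas5 summed to 2988 ± 404 normalized counts in siL-DHX15-LEC and 4175 ± 499 in wild-type LEC, and its other isoforms to 8424 ± 866 and 6807 ± 823 (SD, n = 4 each, siL-DHX15-LEC before wild-type LEC). Those of Snhg1 summed to 1454 ± 209 in siL-DHX15-LEC and 2012 ± 211 in wild-type LEC, and its other isoforms to 4156 ± 531 in siL-DHX15-LEC and 3427 ± 402 in wild-type LEC. Both kinds overlapped between conditions in Gas5 and Snhg1, although their shares did not. In Snhg8, the isoforms of another biotype, Snhg8-001 and Snhg8-002, had 2768, 2861, 2854 and 2809 in siL-DHX15-LEC, against 2307, 2282, 2249 and 2254 in wild-type LEC. Snhg8-003 had 132, 154, 151 and 152 in siL-DHX15-LEC, against 160, 207, 183 and 203 in wild-type LEC, with no overlap on either side. Over the whole table, retained intron isoforms took 1.67% to 1.70% of all normalized counts in siL-DHX15-LEC, against 1.69% to 1.82% in wild-type LEC, and their median log2 fold change was -0.10 over 10398 isoforms. The part of this shift in the shares of the hosts was not tested.

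Isoforms were also grouped by whether an exon holds a whole annotated snoRNA, as in the introns printed above. This too is a description chosen after values had been seen. In Gas5, Snhg1 and Snhg5 the class lies within the retained intron isoforms, with 16 of 20, 11 of 14 and 2 of 3 of them. Its lower shares there are therefore not a separate result. The share of the class averaged 21.9% ± 1.14 and 30.6% ± 1.98 in Gas5, 22.8% ± 2.27 and 33.1% ± 1.28 in Snhg1, 10.3% ± 0.870 and 14.1% ± 0.897 in Snhg5, and 5.50% ± 0.821 and 9.06% ± 1.69 in Snhg12, in siL-DHX15-LEC and wild-type LEC (SD, n = 4 each). In Snhg8 the class is Snhg8-003 alone. The value for Snhg12 rests on Snhg12-004, which holds Snora44, and Snhg12-007, which holds Snora61. Snhg12-001, Snhg12-003, Snhg12-005 and Snhg12-006 were not placed on the annotation and were counted as holding none. Their exons are not known here, so the share of the class in Snhg12 and its difference between conditions are not settled.

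**Figure D2:**
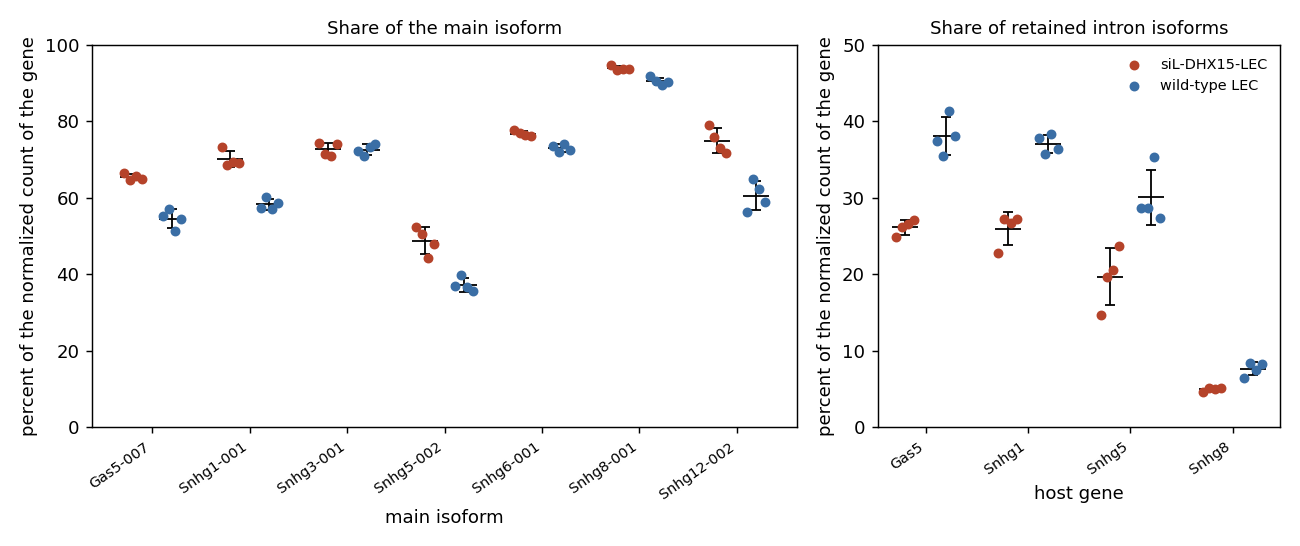
Percent of the normalized count of a host gene taken by its main isoform (left, 7 hosts) and by its retained intron isoforms (right, 4 hosts) in each of 4 siL-DHX15-LEC and 4 wild-type LEC libraries, with the mean and SD as bars. Main isoform shares are higher in siL-DHX15-LEC without overlap in all hosts but Snhg3, and retained intron shares are lower without overlap in all 4 hosts. Both shares are parts of the same gene sum and are not separate results.

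Tested one by one, 3 of the 62 isoforms rose and 5 fell (limma, adjusted p of 0.05 over 50198 isoforms, of which 6.61% rose and 3.83% fell). At an adjusted p of 0.001, the study's threshold for isoforms, 0 of the 62 passed with limma, against 0.287% of all isoforms. At that threshold edgeR also called 0, against 0.271% of all isoforms, and DESeq2 5, against 9.16% of all isoforms to which it gave an adjusted p. At 0.05, edgeR called 6 of the 62, against 10.3% of all, and DESeq2 12, against 20.4% of those with an adjusted p. DESeq2 gave no adjusted p to some of the 62, among them Gas5-023 and Snhg12-006, so its counts and percentages have unlike totals. An unadjusted p below 0.05 with limma was seen for 27 of the 62 and 25.4% of all. All 3 that rose were main isoforms. Snhg12-002 had 2097, 1730, 1560 and 1444 normalized counts in siL-DHX15-LEC, against 920, 1140, 1035 and 964 in wild-type LEC (1.67-fold, adjusted p = 0.00694). Snhg5-002 had 973, 836, 735 and 924 in siL-DHX15-LEC, against 445, 653, 596 and 558 in wild-type LEC (1.54-fold, adjusted p = 0.0207). Snhg8-001 had 2749, 2816, 2816 and 2771 in siL-DHX15-LEC, against 2262, 2253, 2176 and 2215 in wild-type LEC (1.25-fold, adjusted p = 0.00228). None of the 3 overlapped between conditions. The share of all isoforms without overlap is not given here, so for single isoforms an absence of overlap only describes the values. Snhg5-002 lost its call without siL-DHX15-LEC replicate 1 or wild-type LEC replicate 4 (adjusted p = 0.0582 and 0.0573).

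Of the 33 retained intron isoforms tested, 4 fell and 0 rose with limma. Among all retained intron isoforms 1.54% fell and 1.70% rose. At an unadjusted p below 0.05 with limma, 16 of the 33 were lower and 0 higher, against 8.74% and 5.50% of all retained intron isoforms. With edgeR 3 were called lower and 0 higher, against 1.38% and 1.59% of all. With DESeq2 6 were called lower and 0 higher, against 4.06% and 3.79% of those with an adjusted p, which Gas5-023, among the 33, did not get. Of the 33, 30 had a log2 fold change below 0, with a median of -0.48, against a median of -0.10 over all 10398 retained intron isoforms. Most of all such isoforms thus lay below 0 as well. The 33 belong to 4 genes and compete for reads, so they are not separate observations. Snhg1-002, in which 6 snoRNAs lie in exons, had 408, 471, 456 and 506 normalized counts in siL-DHX15-LEC, against 560, 737, 742 and 691 in wild-type LEC (0.676-fold, adjusted p = 0.0151). Gas5-014 keeps an intron without an annotated snoRNA. It had 418, 303, 390 and 432 in siL-DHX15-LEC, against 517, 630, 683 and 703 in wild-type LEC (0.608-fold, adjusted p = 0.0145). Neither overlapped. Gas5-006, which holds 3 snoRNAs, had 533, 575, 575 and 811 in siL-DHX15-LEC, against 758, 920, 1095 and 1007 in wild-type LEC (0.657-fold, adjusted p = 0.0413), with an overlap through siL-DHX15-LEC replicate 4. Gas5-023, a rare isoform, had 6.79, 0, 8.78 and 0 in siL-DHX15-LEC, against 36.1, 46.0, 44.9 and 12.1 in wild-type LEC (adjusted p = 0.0459). The calls of Gas5-006 and Gas5-023 were each lost in 6 of 8 fits that left out 1 library, with adjusted p up to 0.109 and 0.122.

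The remaining retained intron isoforms of Gas5 and Snhg1 did not pass. Gas5-003, the longest isoform of Gas5 with 6 snoRNAs in exons, averaged 727 ± 91.6 in siL-DHX15-LEC and 968 ± 123 in wild-type LEC (SD, n = 4 each, limma adjusted p = 0.0603). Gas5-012, with Snord80 in an exon, averaged 217 ± 52.2 and 296 ± 25.2 in siL-DHX15-LEC and wild-type LEC. Log2 fold changes were -0.34 for Gas5-005, -0.70 for Gas5-013, -0.48 for Gas5-017, -0.62 for Gas5-019 and -0.23 for Gas5-024. They were -0.21 for Gas5-015, -0.14 for Gas5-021 and 0.02 for Gas5-011. The rarest, under a mean of 30, varied more from library to library, with -0.79 for Gas5-004, -0.20 for Gas5-016, -1.39 for Gas5-018, 1.10 for Gas5-020 and -3.41 for Gas5-025, which was at 0 in 3 siL-DHX15-LEC libraries. Snhg1-003, with 7 snoRNAs in exons, averaged 465 ± 134 in siL-DHX15-LEC and 639 ± 85.8 in wild-type LEC (log2 fold change -0.49, adjusted p = 0.144). The others of Snhg1 ranged from -1.42 for Snhg1-005 to 0.21 for Snhg1-006, with -0.77 for Snhg1-007, -0.70 for Snhg1-008, -0.67 for Snhg1-013, -0.42 for Snhg1-017, -0.40 for Snhg1-014, -0.29 for Snhg1-012 and -0.24 for Snhg1-015.

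In Snhg5, the retained intron isoforms Snhg5-003, Snhg5-007 and Snhg5-008 averaged 29.2 ± 12.7, 152 ± 14.7 and 168 ± 74.9 in siL-DHX15-LEC, against 49.2 ± 19.9, 165 ± 25.4 and 242 ± 64.8 in wild-type LEC (SD, n = 4 each). None passed. Snhg5-008 holds no snoRNA in an exon, and its replicate 4 of siL-DHX15-LEC, at 272, lay above 3 of the wild-type libraries. Snhg5-001, a lincRNA by biotype that nonetheless keeps 1 intron of the main isoform, averaged 559 ± 50.6 in siL-DHX15-LEC and 492 ± 72.9 in wild-type LEC (log2 fold change 0.19).

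Isoforms of another biotype differed in sign within a gene. Of the 29 isoforms of lincRNA or processed transcript biotype, 16 had a log2 fold change below 0. The only one that fell was Snhg6-004, with 190, 198, 169 and 187 in siL-DHX15-LEC, against 224, 264, 233 and 237 in wild-type LEC (0.778-fold, adjusted p = 0.0498). Its groups did not overlap, but its call was lost in each of 8 fits that left out 1 library (adjusted p up to 0.125). Snhg6-001 had 2805, 2721, 2584 and 2918 in siL-DHX15-LEC, against 2279, 2539, 2431 and 2435 in wild-type LEC, with no overlap (log2 fold change 0.19, adjusted p = 0.0642). Snhg6-002 and Snhg6-003 had log2 fold changes of 0.01 and -0.28. In Gas5, the main isoform Gas5-007 had 7411, 6738, 7105 and 8590 in siL-DHX15-LEC, against 5159, 6913, 5803 and 6054 in wild-type LEC (log2 fold change 0.32, adjusted p = 0.0791). Gas5-001 had 0.26, Gas5-002 0.07, Gas5-008 -0.03 and Gas5-009 -0.23 as log2 fold changes.

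In Snhg1, Snhg1-001 had 4241, 3426, 3574 and 4488 in siL-DHX15-LEC, against 2615, 3475, 3312 and 3289 in wild-type LEC (log2 fold change 0.31, adjusted p = 0.129). Of its rarer lincRNA isoforms, Snhg1-004, Snhg1-016 and Snhg1-018 had -0.20, -0.24 and 0.29. In Snhg12, Snhg12-001 averaged 153 ± 14.7 in siL-DHX15-LEC and 194 ± 25.6 in wild-type LEC, and Snhg12-005 128 ± 19.2 in siL-DHX15-LEC and 169 ± 7.54 in wild-type LEC (SD, n = 4 each). Neither passed, although neither overlapped. Snhg12-003, Snhg12-004, Snhg12-006 and Snhg12-007 had log2 fold changes of -0.07, -0.25, 1.00 and -0.26, and Snhg8-002 had -0.38. In Snhg3 the 5 isoforms moved little apart, with -0.22 for Snhg3-001, -0.29 for Snhg3-002, -0.26 for Snhg3-003, 0.06 for Snhg3-004 and -0.04 for Snhg3-006. No Snhg3 isoform held a whole snoRNA in an exon, although an exon of Snhg3-003 covers part of Snora73a.

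**Figure D3:**
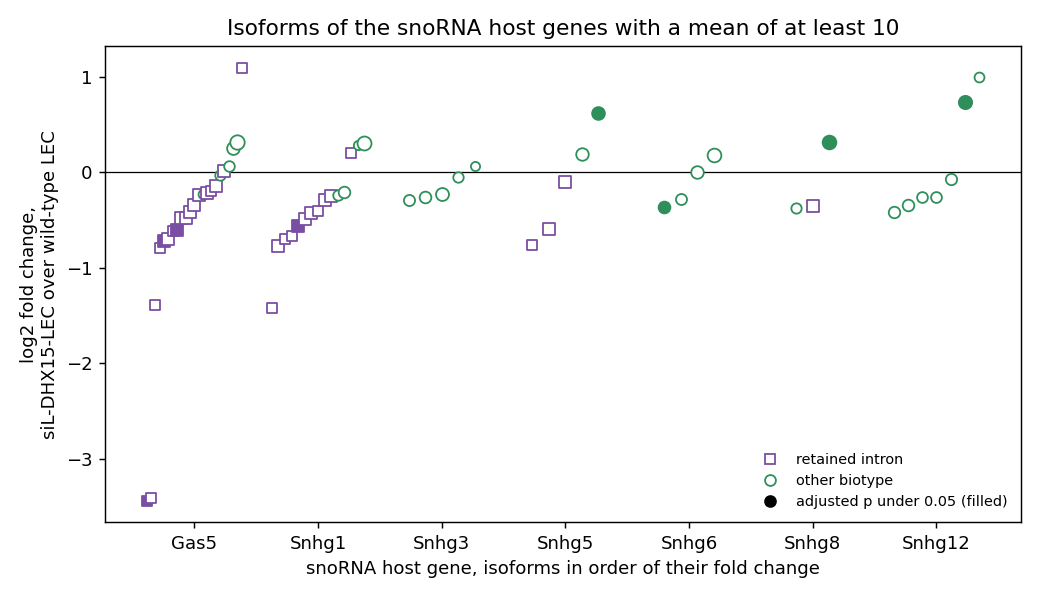
Log2 fold change, siL-DHX15-LEC over wild-type LEC, of each of the 62 isoforms with a mean of at least 10, by host gene. Squares are retained intron isoforms, of which 30 of 33 lie below 0, circles are isoforms of another biotype, larger marks have higher means, and filled marks passed an adjusted p of 0.05. The squares belong to 4 genes and are not independent, and the median of all retained intron isoforms is -0.10.

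Other snoRNA hosts were set beside the 7. Of 12 other noncoding hosts tested, 3 rose and 9 did not pass, beside 18.4% of all genes that rose. They were 2410006H16Rik, with 13913, 12664, 11490 and 11199 in siL-DHX15-LEC, against 8279, 8600, 7717 and 7996 in wild-type LEC (1.51-fold, adjusted p = 8.04e-05), Zfas1 (1.23-fold, adjusted p = 0.000419) and Epb41l4aos (1.21-fold, adjusted p = 0.00147). Of 42 protein-coding hosts tested, 25 rose and 2 fell, with a median log2 fold change of 0.18. The 3 that rose with the smallest p were the ribosomal protein genes Rps20 (1.23-fold), Rpl12 (1.32-fold) and Rpl32 (1.24-fold). Of 16 TOP mRNAs that host no snoRNA, 12 rose and 4 did not pass, with a median of 0.23. They include Rpl22 (1.26-fold), Rps7 (1.25-fold) and Pabpc1, the cytoplasmic poly-A binding protein (1.19-fold). Each list was chosen with results known, so these counts are descriptions.

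Among the proteins that bind snoRNAs, 2 of 8 core genes rose and 6 did not pass, beside 18.4% higher and 14.8% lower among all genes. They were Gar1, a subunit of the pseudouridylation particle (1.19-fold, adjusted p = 0.000614), and Nop56, a subunit of the methylation particle that itself hosts snoRNAs (1.08-fold, adjusted p = 0.0443). Of 21 assembly and processing factors, 6 rose and 1 fell, beside the same shares of all genes. The helicase Ruvbl2 (1.25-fold, adjusted p = 0.000287), the deadenylase Parn (1.21-fold, adjusted p = 0.00251) and the assembly factor Naf1 (1.14-fold, adjusted p = 0.00433) had the smallest p.

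Among 21 factors of nonsense-mediated decay, which clears spliced host RNA, 6 were called higher, 4 lower and 11 did not pass. Beside them, 18.4% of all genes were higher and 14.8% lower. The median log2 fold change of these factors was -0.01. Upf3b, which links the exon junction complex to the decay machinery, had 1861, 1567, 1840 and 2310 in siL-DHX15-LEC, against 2383, 2871, 2698 and 2666 in wild-type LEC (0.709-fold, adjusted p = 0.00289). Smg9, a regulator of the kinase Smg1, was 1.13-fold higher (adjusted p = 0.00438), and Pnrc2, an adaptor to decapping, 1.19-fold higher (adjusted p = 0.0056). Of 8 coding mRNAs known as targets of decay, 6 rose and 1 fell, with a median of 0.49. Ddit3 (1.88-fold), Chac1 (1.50-fold) and Atf4 (1.31-fold), which had the smallest p, also belong to the amino acid and stress response, and which process moved them was not tested.

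**Figure D4:**
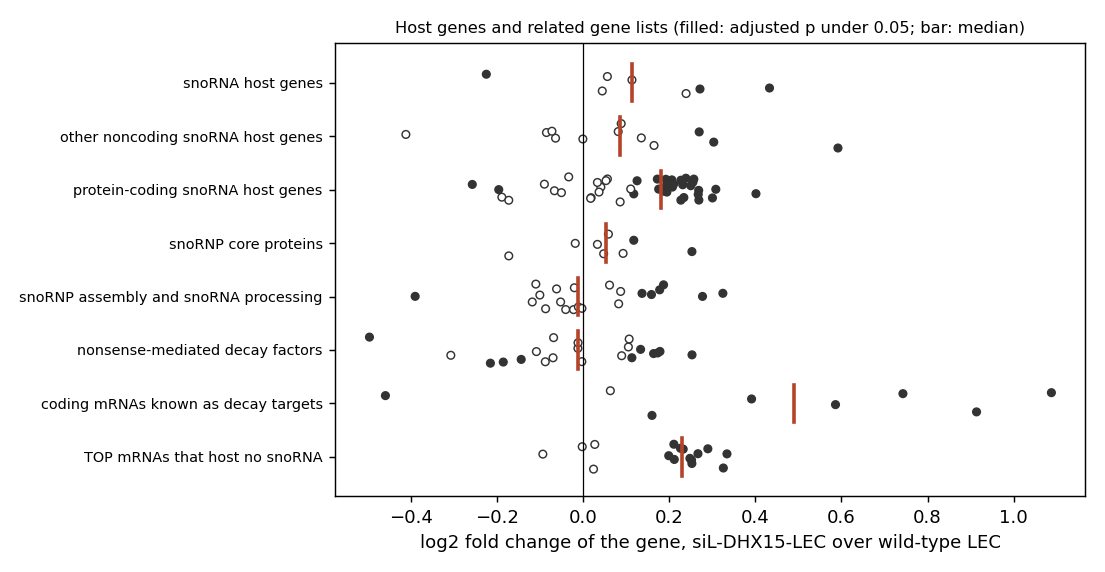
Log2 fold change, siL-DHX15-LEC over wild-type LEC, of each tested gene in 8 lists, with the list median as a bar and genes that passed an adjusted p of 0.05 filled. Medians are 0.18 for protein-coding hosts, 0.23 for TOP mRNAs without snoRNA and 0.49 for coding decay targets, and 0.11 for the 7 hosts.

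Neighbouring genes were compared in the same libraries. Slc3a2, the heavy chain of amino acid transporters, starts 106 bases from Snhg1 on the other strand. It had 66302, 62462, 59419 and 53955 in siL-DHX15-LEC, against 44804, 47211, 44590 and 42024 in wild-type LEC (1.35-fold, adjusted p = 0.000289), while the sum of Snhg1 did not pass. Zbtb37 overlaps Gas5 on the other strand. It averaged 2640 ± 514 in siL-DHX15-LEC and 3320 ± 443 in wild-type LEC (SD, n = 4 each, limma adjusted p = 0.0616). The kit marks strand, but whether the counting used it is not given in the sources used here, so reads of overlapping genes may be mixed. Gm17300, opposite Snhg3, and Mcmdc2, opposite Snhg6, stayed below 4 and 8 normalized counts in every library.

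The genes whose profile over the 8 libraries was most like each host other than Snhg12 were found by the mean absolute difference of centred log2 values among 13481 genes with a mean of at least 50. Gas5 and Snhg1 stood close to each other. The nearest gene to Snhg1 was Gas5 (0.04), and the nearest to Gas5 was Zbtb44 (0.03). The nearest to Snhg8 was Srsf4, a splicing factor (0.01), with 14487, 14780, 14766 and 14507 normalized counts in siL-DHX15-LEC, against 12501, 12173, 11904 and 12027 in wild-type LEC. The nearest to Snhg6 was Mapk8, a stress-activated kinase (0.01), to Snhg5 Thrb, a thyroid hormone receptor (0.06), and to Snhg3 2500004C02Rik (0.04). All points share the same 8 libraries and size factors.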

How the data were processed

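The members and lists were chosen with earlier results of these data known. A stranded kit was used on poly-A RNA, starting from 500 ng per library, and fragments were sequenced from both ends for 76 bases. The authors mapped reads with STAR 2.5.2a to GRCm38 and estimated isoform counts for the GENCODE M12 annotation by RSEM 1.2.28. Size factors of DESeq2 1.18 were then applied. The deposited signal is thus a normalized count per isoform, with recovered depths of 77335734 to 152045693 read pairs assigned to isoforms. Another deposited table holds percent values (duplicate pairs) and other quality measures of each library, of which insert size was used, and a further one gives the flow cell lanes. Low values were whole multiples of the worth of 1 read (within 0.1 of a step for 100%), and reads recovered from them went into edgeR 4.0.16, which called 5639 genes, and DESeq2 1.42.0. Isoforms that overlap compete for reads, so their estimates are not independent.

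The test was limma 3.58.1 in R 4.3.3, two-sided, with a variance trend and no covariate, fitted to log2 values of all 8 libraries after adding a pseudocount of 1. Features averaging under 10 were left out, and folds are on this scale. diffSplice tested usage and exact permutation tests the shares. Scripts were tested on simulated data. Genes named by rule were the members with all isoforms averaging 10 or more, Dhx15, up to 3 passing genes with the smallest p per list, overlapping or divergent neighbours and the most alike gene per member. Markers and host snoRNAs were also named. Alternatives changed the pseudocount (0.5, 5), filter (none, 50), scaling, trend, tool (edgeR, DESeq2), summary (highest isoform), usage filter and share, or left out 1 library. Those on retained intron shares were chosen after seeing the data. The gene most alike to Snhg12 is not reported here.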

Additional observations from a re-analysis of the deposited data

Results flagged for a closer look

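In 12 of the 162 groups of 4 libraries examined, 1 library stood far from the other 3 (Dixon test at 95%), where chance gives about 1 in 20. Wild-type LEC replicate 1 was low for Snhg1 (4552 normalized counts, the others 5611 to 5814), Snhg5 (1208, the others 1571 to 1642) and Gas5-011 (175, the others 204 to 210). Replicate 4 of siL-DHX15-LEC was high for Snhg3 (1286, the others 1098 to 1124), Gas5-003 (864, the others 671 to 692), Gas5-006 (811, the others 533 to 575) and Snhg6-002 (621, the others 533 to 545). Replicate 1 of siL-DHX15-LEC, the shallowest library, was low for Snhg8-003 (132, the others 151 to 154) and for the retained intron share of Snhg1 (22.7%, the others 26.7% to 27.2%), and high for the share of Snhg1-001 (73.3%, the others 68.6% to 69.3%). Gas5-025 had 15 normalized counts in siL-DHX15-LEC replicate 2 and was at 0 in the others. The retained intron share of Snhg5 was 35.3% in wild-type LEC replicate 3 and 27.4% to 28.7% in the others.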

How the results depend on the processing

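No paired analysis was possible because the labels number no replicates. Of the host genes, 3 passed, and 5 with the isoform of highest mean in place of the sum (Gas5, Snhg5 and Snhg6 gained, Snhg3 lost). Without a trend 2 passed (Snhg3 lost), and 2 to 3 when a library was left out. Over all genes 5474 passed, 4597 with the isoform of highest mean, 4657 without a trend and 3994 to 6549 without a library. Of the isoforms, 8 passed, 5 without a filter, 4 without a trend, 0 at an adjusted p of 0.001, and 5 to 11 without a library (5 without siL-DHX15-LEC replicate 1 or wild-type LEC replicate 3 or 4). Over all isoforms tested, 5242 passed, 4261 without a filter, 2638 without a trend, 144 at 0.001, 8068 with DESeq2 and 2924 to 5901 without a library. Isoform usage passed in 6 hosts and in 1101 of all genes. With all isoforms averaging 1 or more, it passed in 1 host and 856 genes. With those of 50 or more and 10% of the gene, it passed in 2 hosts and 937 genes. Without a library, it passed in 4 to 6 hosts and 820 to 1109 genes. Snhg12-002, Snhg8-001, Gas5-014 and Snhg1-002 kept their call under every alternative but the threshold of 0.001. The other 4 lost it under some. With equal library totals the median log2 fold change of all genes was -0.08, and Gas5 and Snhg1 had -0.011 and -0.023. No member that passed changed sign. Of those that did not pass, some did when a library was left out, with log2 fold changes of -0.020 to 0.11 for Gas5, -0.039 to 0.10 for Snhg1, -0.13 to 0.0085 for Snhg12-003, -0.18 to 0.066 for Snhg3-006, -0.29 to 0.27 for Snhg3-004, -0.12 to 0.18 for Gas5-008, -1.44 to 0.47 for Gas5-016 (0.011 with a pseudocount of 0.5), -0.42 to 0.014 for Gas5-015, -0.20 to 0.55 for Gas5-002, -0.14 to 1.62 for Gas5-020, -0.042 to 0.057 for Gas5-011, -0.041 to 0.059 for Snhg6-002 and -0.013 to 0.54 for Snhg1-006. The share of Snhg3-001 differed by -0.032 points per base of length. For the retained intron shares, 5 alternatives moved the difference of a host by an SD or more and 39 by less. No sign changed, and leaving out a library moved no difference that far. The cause of these changes was not tested. Shares per base could not be had for Snhg12, as 4 of its isoforms have no length here. Leaving out a library leaves 3 against 4, where an exact test cannot go below 0.0571. Depth limits only the rarest isoforms, where a few reads decide a value.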
